A study of Rattus norvegicus with 9 samples.

Results

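Cells of the artery wall hold on to each other and to their matrix through a few families of surface proteins. Integrins are pairs of an alpha and a beta chain that bind matrix proteins outside the cell and link them to actin at focal adhesions. Syndecans are membrane proteoglycans whose heparan sulphate chains bind matrix proteins and growth factors. Cadherins join neighbouring cells through calcium-dependent contacts, and Icam and Vcam proteins on endothelium bind the integrins of leukocytes. Laminins, trimers of an alpha, a beta and a gamma chain, form the basement membrane around smooth muscle cells and under the endothelium, where integrins bind them.

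Expression of these families was compared in rat arteries. Members were the probesets whose platform gene symbol names an integrin chain, a syndecan, an Icam protein, Vcam1, a cadherin or a laminin chain, and they came to 58 probesets of 41 genes out of 15923 probesets on the array. The choice by symbol also takes Itgb1bp1, Itgb1bp2 and Itgb3bp, whose products bind integrins and are not chains. A filter on low signal over the array kept 36 member probesets of 27 genes. The lowest kept probeset had a third-brightest array at 44.3, so a member with signal in only 1 group could still pass.

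The vessel was a side branch of the hind limb's saphenous artery, taken from male rats aged 16 weeks. The normotensive controls were untreated Wistar-Kyoto (WKY) rats. The second group were WKY rats given adrenocorticotropic hormone (ACTH), which drives the adrenal gland to release corticosterone, from 12 weeks of age for 4 weeks. The labels give its dose as 0.1 mg/kg/day and the methods of the study give another dose. The third group were untreated spontaneously hypertensive rats (SHR), an inbred strain with genetic hypertension. Each group had 3 arrays, and each array held RNA pooled from 2 to 3 rats, which limits what the spread between arrays says about single animals. Since SHR and WKY are different strains, strain and hypertension cannot be told apart in SHR. The artery pieces held the entire wall, so fewer cells of a type and less RNA per cell cannot be told apart.

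Array signals are MAS5 intensities on a linear scale, set by the authors to a target of 150. Changes are log2 differences ± standard error from limma with 3 arrays per group, and a probeset was called changed at an adjusted p under 0.05 over all kept probesets. The 3 ACTH arrays were scanned on a day with SHR 3, SHR 1 and SHR 2 were scanned with WKY 2, and WKY 1 and WKY 3 were scanned on days of their own. No scan day held both ACTH and WKY arrays, so ACTH treatment and scan day cannot be told apart there. The 3'/5' ratio of GAPDH, a measure of RNA length ranged over 4.91 to 5.99 in the WKY arrays, 3.67 to 4.52 in those of ACTH and 3.57 to 5.16 in those of SHR, and the part of RNA length in the results was not tested beyond its use as a covariate. Of the 9 arrays, 8 had their highest correlation with an array of their own group. WKY 2 had its highest correlation with an ACTH array (r = 0.962). Among marker genes, 12 of 12 smooth muscle genes and 13 of 14 endothelial genes on the array were kept, with Myh11, the smooth muscle myosin heavy chain, at 5293 to 7552 on all arrays.

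Promoters of the called genes are shown because they are the sequence around the start of the transcripts that differed. RefSeq promoter entries (assembly GRCr8) matched 27 of the 41 genes, among them Sdc1 and Lamc1 but neither Icam2 nor Cdh13. The 250 bases before the transcript start were searched on both strands, and capitals mark the GC box, GGGCGG or its reverse complement, CCGCCC.
Sdc1 (chr6:37281791-37282040, plus strand): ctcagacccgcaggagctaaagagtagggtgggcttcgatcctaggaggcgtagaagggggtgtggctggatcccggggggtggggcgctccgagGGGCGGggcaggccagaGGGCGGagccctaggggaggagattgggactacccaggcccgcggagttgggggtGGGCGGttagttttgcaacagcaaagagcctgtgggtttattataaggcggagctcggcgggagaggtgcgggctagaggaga
Lamc1 (chr13:68051987-68052236, minus strand): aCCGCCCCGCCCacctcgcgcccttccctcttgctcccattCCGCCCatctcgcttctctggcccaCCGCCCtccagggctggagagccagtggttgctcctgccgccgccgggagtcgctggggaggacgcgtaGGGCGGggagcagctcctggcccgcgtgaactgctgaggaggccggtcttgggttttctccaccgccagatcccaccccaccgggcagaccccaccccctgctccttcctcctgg
The Sdc1 window held 3 GC boxes and 65.2% G and C, and the Lamc1 window held 5, of which the leading pair share a base, and 71.2%. The GC box was found in 13 of the 27 member promoters (48.1%) and in 30.5% of 33469 rat promoters. AGAACA, a hexamer of the glucocorticoid receptor element, was found in 1 member promoter (3.70%), that of Lama2, and in 17.5% of all promoters. TATAAA was found in 4 member promoters (14.8%), those of Icam1, Itgb7, Lama4 and Vcam1, and in 12.9% of all promoters. The searched hexamers do not overlap each other by their letters, and a match is a description of the sequence and not a binding site.

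In SHR arteries 3 of the 36 kept member probesets were called against WKY, all of them lower. They were both probesets of the syndecan Sdc1 and 1 of the 2 probesets of Icam2, an endothelial ligand of leukocyte integrins. This was 8.33% of the kept member probesets, beside 2.04% of all kept probesets called (1.08% called lower). In arteries of ACTH-treated rats 1 member probeset, of the cadherin Cdh13, was called and was lower than in WKY (2.78%, beside 1.21% of all, and 0.659% called lower). Between the models, SHR against ACTH, 2 were called (5.56%, beside 3.40% of all), 1 of Icam2 lower in SHR (1.82% of all called lower) and 1 of the laminin chain Lamc1 higher in SHR (1.57% of all called higher). A test for any difference among the 3 groups called 4, the Sdc1 pair, the Icam2 probeset and the Cdh13 probeset, where 4.10% of all kept probesets were called. SHR and ACTH were set against the same WKY arrays, so their changes share the errors of these controls.

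**Figure D1:**
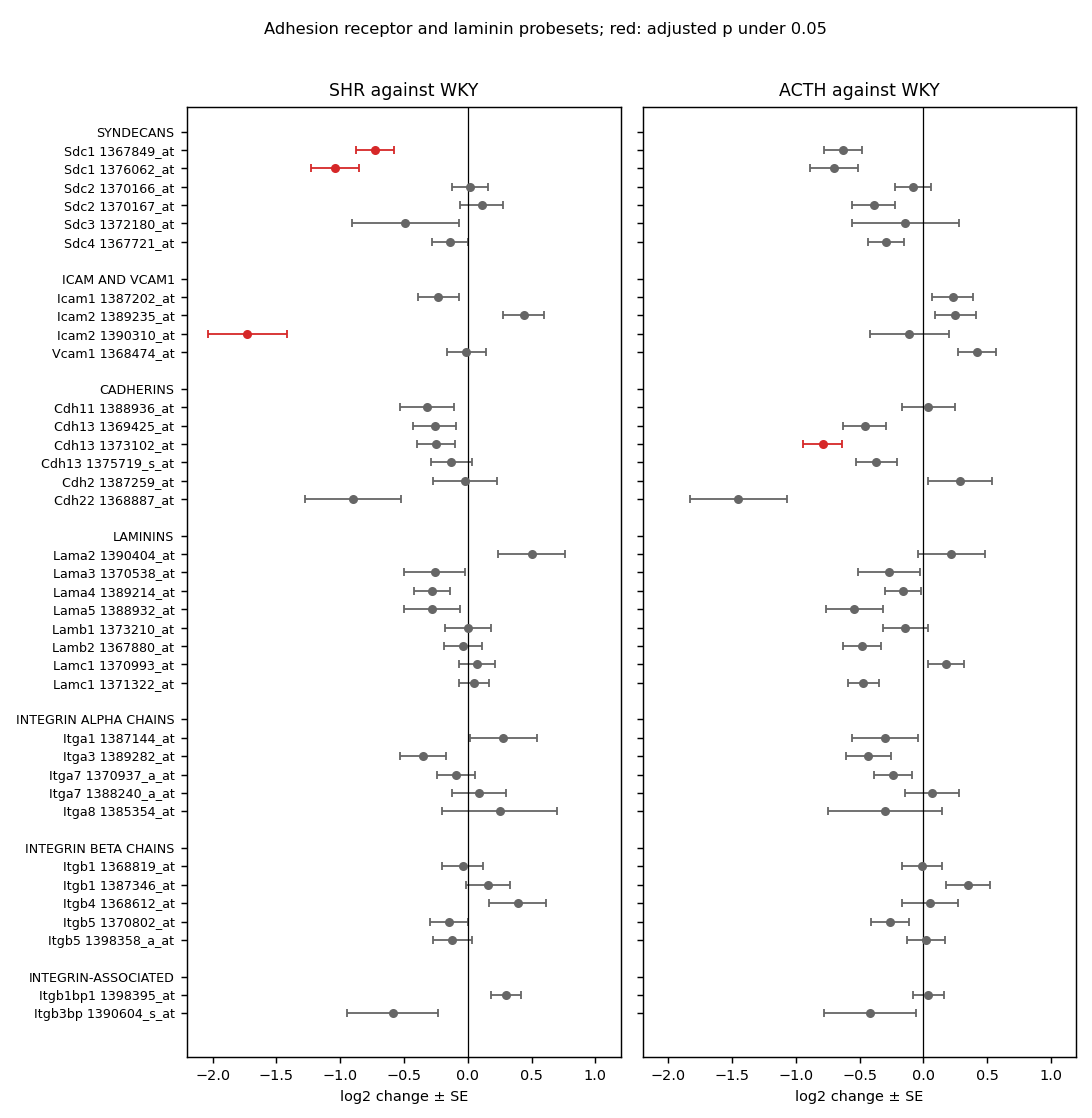
Log2 change ± SE of the 36 kept member probesets in SHR (left) and ACTH (right) against WKY, grouped by family, with 3 arrays per group. Red marks an adjusted p under 0.05, which 3 probesets (2 of Sdc1 and 1 of Icam2) reach in SHR and 1 of Cdh13 reaches in ACTH.

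Over the brightest kept probeset of each of the 27 genes, the median log2 change was -0.092 in SHR against WKY, with 18 genes below 0 and 9 above. In ACTH against WKY it was -0.163, again with 18 below 0 and 9 above. Over all 6898 genes with a kept probeset the medians were -0.001 and 0.024, with 50.2% and 45.8% of genes below 0. Between SHR and ACTH the member median was 0.143 (10 below 0 and 17 above), beside -0.015 over all genes. The ACTH median was -0.067 without WKY 1 and -0.238 without WKY 3, and the SHR median was -0.044 without WKY 1, -0.053 without SHR 1, -0.140 without WKY 3 and -0.154 without SHR 2. The SHR against ACTH median was 0.089 without SHR 3. The pooled standard deviation of an array's median over the 27 genes was 0.071.

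Groups that did not overlap were more frequent than called probesets. In ACTH all 3 arrays lay to the same side of all 3 WKY arrays for 17 of the 36 member probesets (47.2%, beside 20.5% of all kept probesets), 14 of them lower (38.9%, beside 9.77%) and 3 higher (beside 10.7%). The unadjusted p was under 0.05 for 12 of these 36, where 12.5% of all kept probesets passed that mark. Probesets of the same gene are counted apart, and the 14 lower ones hold 3 of Cdh13 and 2 of Sdc1. The ACTH arrays shared no scan day with WKY arrays, and their GAPDH ratios (3.67 to 4.52) lay below those of WKY (4.91 to 5.99). The part of scan day and RNA length in these counts was not tested. In SHR 6 member probesets did not overlap WKY (16.7%, beside 19.4%), 4 lower (beside 9.64%) and 2 higher (beside 9.72%), and 6 had an unadjusted p under 0.05, beside 16.4% of all. Between SHR and ACTH 10 did not overlap (27.8%, beside 24.9%), 6 higher in SHR (beside 11.7%) and 4 lower (beside 13.3%), and 8 had an unadjusted p under 0.05, beside 17.2% of all.

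Sdc1, the syndecan of epithelia and plasma cells that is also found in the vessel wall, was lower in SHR by both its probesets. At probeset 1367849_at the WKY arrays gave signals of 332, 311 and 388, the ACTH arrays 205, 225 and 233, and the SHR arrays 181, 217 and 222. Every ACTH and SHR array lay below every WKY array, and the ACTH and SHR arrays overlapped each other. In SHR the signal fell by 39.8% (log2 change -0.73 ± 0.15, 95% interval -1.06 to -0.41, limma adjusted p = 0.0326).

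The other Sdc1 probeset, 1376062_at, gave 109, 114 and 89.3 in WKY, 56.6, 61.5 and 74.5 in ACTH and 41.1, 62.3 and 50.1 in SHR. Here too the WKY arrays were the 3 highest. In SHR it fell by 51.2% (-1.04 ± 0.19, 95% interval -1.45 to -0.62, limma adjusted p = 0.0190). SHR 1 lay under the 44.3 that marked the lowest kept probeset, so the size of this change rests in part on dim signal. In ACTH the changes were -0.63 ± 0.15 and -0.70 ± 0.19, which did not pass (limma adjusted p = 0.0820 and 0.130). SHR and ACTH differed by -0.10 (95% interval -0.42 to 0.23) and -0.34 (-0.75 to 0.08), so neither probeset separated the models.

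Within the scan day that SHR 1 and SHR 2 shared with WKY 2, Sdc1 was lower by log2 changes of -0.65 and -1.17. The call at 1367849_at was lost without WKY 1, WKY 3, SHR 1, SHR 2 or any of the ACTH arrays, with limma adjusted p of 0.0541 to 0.104 and log2 changes of -0.77 to -0.64. The call at 1376062_at was lost without WKY 1, WKY 2 or SHR 1, with limma adjusted p of 0.0512 to 0.0706. Both were lost with the GAPDH ratio as a covariate, where the changes were -0.72 and -0.97 (limma adjusted p = 0.258 and 0.238). They were also lost with the scan day as a block. That fit has WKY 2 as the only WKY array to compare, so its changes repeat the -0.65 and -1.17 of the shared day and are not a separate check.

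The other syndecans were not called in any comparison. Sdc4, which sits with integrins in focal adhesions, gave 669, 690 and 789 in WKY, 557, 622 and 579 in ACTH and 587, 660 and 706 in SHR. All ACTH arrays lay below the WKY arrays, with a change of -0.29 ± 0.14 (limma adjusted p = 0.443), and in SHR it was -0.14 ± 0.14. Sdc2, the syndecan of mesenchymal cells, changed by -0.08 ± 0.14 at 1370166_at and -0.39 ± 0.17 at 1370167_at in ACTH (limma adjusted p = 0.880 and 0.395), and by 0.02 and 0.11 in SHR. Its probesets thus gave unequal sizes, and at 1370167_at SHR lay above ACTH by 0.50 ± 0.17 (limma adjusted p = 0.167). Sdc3, known mainly from nerve and muscle, kept 1 of 3 probesets, with signals of 22.1 to 68.6 and overlapping groups.

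Icam2, a ligand of leukocyte integrins present on endothelium and platelets, gave opposite directions by its 2 probesets. At 1390310_at the signals were 95.4, 106 and 135 in WKY, 102, 133 and 80.2 in ACTH and 50.8, 20.1 and 36.3 in SHR. All SHR arrays lay below all other arrays, and WKY and ACTH overlapped. The SHR signal fell by 69.9% against WKY (-1.73 ± 0.31, 95% interval -2.42 to -1.04, limma adjusted p = 0.0190) and fell by 67.6% against ACTH (-1.63 ± 0.31, limma adjusted p = 0.0205). SHR 2 and SHR 3 lay under the 44.3 that marked the lowest kept probeset, and detection calls were not used here, so the size of this change rests on dim signals.

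The brighter Icam2 probeset, 1389235_at, gave 311, 241 and 345 in WKY, 353, 360 and 342 in ACTH and 397, 357 and 453 in SHR. The SHR arrays were all above the WKY arrays, with a change of 0.44 ± 0.16 (limma adjusted p = 0.226), which did not pass. The direction of Icam2 as a gene in SHR is therefore not settled by these arrays. Within the shared scan day the dim probeset differed by -1.73 and the bright one by 0.64. At 1390310_at the call in SHR against WKY was lost without WKY 3 (-1.59, limma adjusted p = 0.0727), and that against ACTH without ACTH 1, ACTH 2 or SHR 3 (limma adjusted p = 0.0744, 0.0736 and 0.0532). With the GAPDH covariate the change against WKY was -1.64 (limma adjusted p = 0.238). With the scan day as a block both Icam2 calls were lost, at -1.73 against WKY and -1.50 against ACTH. The first change then rests on WKY 2 alone and the second on SHR 3 alone, so they are not a separate check.

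Of 13 endothelial marker genes 11 lay above 0 in SHR against WKY and 2 below (median 0.310). Of their 14 kept probesets, 6 lay above all WKY arrays (beside 9.72% of all kept probesets) and 2 below (beside 9.64%). Limma called 4 (beside 2.04%), with Flt1 (1.71 ± 0.24), Emcn (1.15 ± 0.20) and Erg (0.99 ± 0.15) higher and Vwf, von Willebrand factor, lower (-1.28 ± 0.21). Flt1 was at 15.3 to 31.4 on the WKY and ACTH arrays and passed the filter on low signal through its SHR arrays alone (54.3 to 72.4), so its call is not counted as support. The counts and the median given here include Flt1, and the calls apart from it are those of Emcn, Erg and Vwf. The summed signal of the 13 endothelial genes ranged over 5040 to 5304 in the WKY arrays, 4256 to 4985 in those of ACTH and 4883 to 5632 in those of SHR. Its part in the Icam2 values was not tested.

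**Figure D2:**
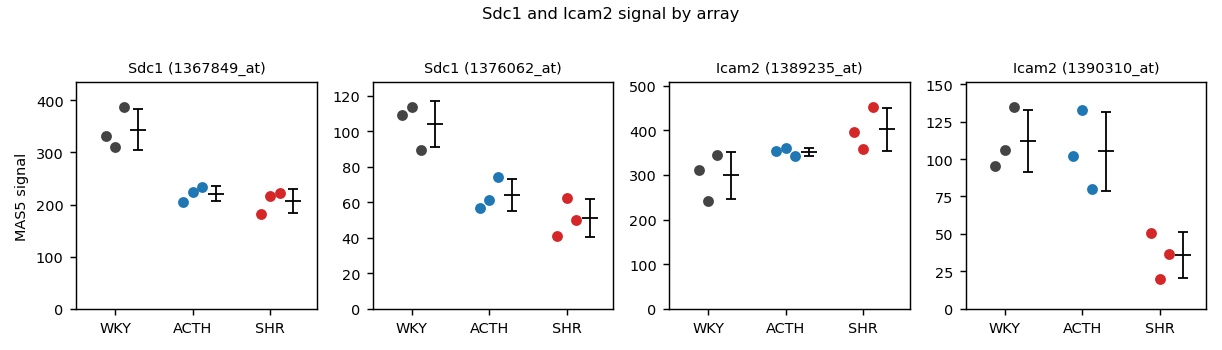
MAS5 signal of the Sdc1 and Icam2 probesets on each array (points), with the mean and SD of the 3 arrays of a group (bars). Both Sdc1 panels have the WKY arrays highest (means 344 and 104), while the Icam2 panels run in opposite directions in SHR (means 402 and 35.7, against 299 and 112 in WKY).

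Icam1 and Vcam1, the inducible endothelial ligands of leukocyte integrins, were not called. Vcam1 gave 170, 181 and 177 in WKY, 236, 229 and 244 in ACTH and 151, 215 and 165 in SHR. The ACTH arrays were above all others, with a change of 0.42 ± 0.15 against WKY (limma adjusted p = 0.276) and SHR 0.43 below ACTH on the log2 scale (-0.43 ± 0.15, limma adjusted p = 0.174). Icam1 gave 245, 235 and 199 in WKY, 250, 294 and 251 in ACTH and 184, 231 and 169 in SHR. Again ACTH was highest on all arrays, by 0.23 ± 0.16 over WKY (limma adjusted p = 0.637). Leukocyte and macrophage markers had summed signals of 733.2 to 2127 in WKY arrays, 1821 to 2730 in those of ACTH and 1628 to 2155 in those of SHR. Against WKY 9 of the 10 genes lay above 0 in ACTH and 1 below (median 1.133), and 10 of 10 above in SHR (median 0.777). Of their 10 kept probesets 7 lay above all WKY arrays in ACTH (beside 10.7% of all kept probesets), 0 below, and 0 were apart from WKY in SHR. Limma called 1 in ACTH (beside 1.21%), that of the complement gene C1qc (2.34 ± 0.47). Some of these probesets had WKY arrays under 44.3, the mark of the lowest kept probeset. The part of these markers in the Vcam1 and Icam1 values was not tested.

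Cdh13, also called T-cadherin, lacks the intracellular tail of other cadherins and is found on smooth muscle and endothelial cells. It was the only member called in ACTH. At 1373102_at the signals were 1306, 1537 and 1399 in WKY, 877, 700 and 877 in ACTH and 1036, 1275 and 1255 in SHR. The groups formed 3 separate bands with WKY on top and ACTH at the bottom. In ACTH the signal fell by 42.3% (-0.79 ± 0.15, 95% interval -1.13 to -0.45, limma adjusted p = 0.0377), while SHR was -0.25 ± 0.15 from WKY (limma adjusted p = 0.443) and 0.54 ± 0.15 above ACTH (limma adjusted p = 0.0921).

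The other 2 Cdh13 probesets had ACTH arrays below all WKY arrays as well, with smaller changes. At 1369425_at the signals were 1458, 983 and 1214 in WKY, 891, 808 and 932 in ACTH and 966, 900 and 1153 in SHR, a change in ACTH of -0.46 ± 0.17 (limma adjusted p = 0.303). At 1375719_s_at, whose suffix marks probes that can match more than 1 transcript, they were 1794, 1344 and 1496 in WKY, 1200, 1099 and 1267 in ACTH and 1224, 1499 and 1505 in SHR, a change of -0.37 ± 0.16 (limma adjusted p = 0.366). Neither passed. The call at 1373102_at was lost when any array other than SHR 1 was left out (log2 changes of -0.85 to -0.69, limma adjusted p = 0.0581 to 0.156) and with the GAPDH covariate (-0.75, limma adjusted p = 0.379). It was also lost with the scan day as a block (-1.04). No day held both ACTH and WKY arrays, so that change runs through the SHR arrays and WKY 2 and is not a direct comparison.

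Cdh22, a cadherin known from brain, gave 67.3, 141 and 59.6 in WKY, 24.6, 32.6 and 34.5 in ACTH and 33.2, 34.1 and 77.4 in SHR at the kept probeset. The ACTH arrays were all below the WKY arrays (-1.45 ± 0.38, limma adjusted p = 0.124), and SHR 3 lay within the WKY range (-0.90 ± 0.38, limma adjusted p = 0.274). Its other probeset was at 1.23 to 1.87 on all arrays. The probeset passed the filter on low signal through the WKY arrays and SHR 3. With the GAPDH covariate the ACTH change was -0.40 (limma adjusted p = 0.827) and the SHR change turned to 0.06. With the scan day as a block they were -3.42 (limma adjusted p = 0.205) and -2.06 (limma adjusted p = 0.0370), a fit in which WKY 2, the highest array, was the only WKY array. Cdh11, a mesenchymal cadherin, overlapped between all groups (-0.32 ± 0.21 in SHR and 0.04 ± 0.21 in ACTH). Cdh2, the N-cadherin that joins smooth muscle cells, kept 1 of 2 probesets at 29.2 to 67.3 and was not called. Cdh1, Cdh3, Cdh6, Cdh16, Cdh17 and Cdh23 were not kept, with signals no higher than 48.5.

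Laminin chains were mostly lower in ACTH by their values, without a call against WKY. The median change of the 7 kept chains was -0.273 in ACTH, with 6 of 7 below 0, and -0.041 in SHR, with 4 of 7 below 0. Lamb2, the beta-2 chain of vascular and muscle basement membranes, gave 3840, 4013 and 4061 in WKY, 2794, 3314 and 2491 in ACTH and 3590, 3797 and 4217 in SHR. All ACTH arrays lay below all WKY and SHR arrays. The change in ACTH was -0.48 ± 0.15 (limma adjusted p = 0.178), and in SHR it was -0.04 (95% interval -0.36 to 0.28).

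Lamc1, the gamma-1 chain shared by most laminin trimers, also had ACTH lowest at its bright probeset, 1371322_at. The signals were 1339, 1249 and 1294 in WKY, 988, 884 and 935 in ACTH and 1281, 1392 and 1351 in SHR. The ACTH arrays were the 3 lowest and the WKY and SHR arrays overlapped. SHR rose by 43.4% over ACTH (0.52 ± 0.12, 95% interval 0.25 to 0.79, limma adjusted p = 0.0489). ACTH was -0.47 ± 0.12 from WKY (limma adjusted p = 0.127) and SHR 0.05 (95% interval -0.22 to 0.33).

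The dim Lamc1 probeset, 1370993_at, did not follow this pattern. Its signals were 61.1, 72.3 and 63.8 in WKY, 74.0, 76.2 and 72.9 in ACTH and 61.0, 69.7 and 76.0 in SHR, so its ACTH arrays lay above the WKY arrays (0.18 ± 0.14, limma adjusted p = 0.666). SHR was -0.12 ± 0.14 from ACTH there. At 1371322_at SHR 3 lay 0.53 above the ACTH arrays of its scan day on the log2 scale. The call was lost when any of the 9 arrays was left out (log2 changes of 0.48 to 0.56, limma adjusted p = 0.0560 to 0.166) and with quantile normalization (0.47, limma adjusted p = 0.0727). With the scan day as a block the call was lost at the same 0.53, since SHR 3 was then the only SHR array to compare with ACTH.

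Among the alpha chains, Lama5, the chain of laminins under endothelium, gave 767, 822 and 926 in WKY, 634, 614 and 487 in ACTH and 489, 754 and 880 in SHR. ACTH lay below WKY on all arrays (-0.54 ± 0.22, limma adjusted p = 0.334), and SHR 1 alone of the SHR arrays was as low. With the GAPDH ratio, which was lower on every ACTH array than on every WKY array, as a covariate, the ACTH change was -0.18 for Lama5 and -0.27 for Lamb2 (limma adjusted p = 0.912 and 0.773), while that of Lamc1 at 1371322_at was -0.50. Lama4, the other alpha chain of endothelial basement membranes, gave 616, 579 and 511 in WKY, 523, 500 and 496 in ACTH and 425, 523 and 457 in SHR, with changes of -0.28 ± 0.14 in SHR and -0.16 ± 0.14 in ACTH. Lama2, the alpha chain of muscle laminin, went the other way, with 768, 959 and 466 in WKY, 948, 860 and 669 in ACTH and 1225, 862 and 925 in SHR. Its groups overlapped (0.50 ± 0.26 in SHR, limma adjusted p = 0.373). Lamb1 and Lama3 overlapped between all groups, and Lama1 was not kept (25.8 to 52.6).

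Fibroblast markers were divided in ACTH, with 7 of 11 genes below 0 and 4 above (median -0.092). Pdgfra (0.53 ± 0.23) and Dcn (0.50 ± 0.15) lay above WKY without passing the test. The summed signal of 11 fibroblast genes ranged over 15821 to 18964 in the WKY arrays, 11255 to 14256 in those of ACTH and 16403 to 18995 in those of SHR. Bright collagen genes weigh heavily in this sum. Col1a2 was at 4301 to 5094 in WKY and 2144 to 3204 in ACTH, Col3a1 at 3985 to 4367 and 2105 to 2841, and Col1a1 at 1941 to 3207 and 439 to 851. Dcn, also bright, was at 2353 to 2894 in WKY and 3503 to 3736 in ACTH. The lower sum in ACTH thus follows the collagens and does not describe the list as a set. Of the 14 kept fibroblast probesets 3, of the type I collagen genes Col1a1 and Col1a2, were called lower in ACTH (beside 0.659% of all kept probesets). In SHR against WKY 1 was called, that of Ly6c, which was higher (1.43 ± 0.31, limma adjusted p = 0.0466, beside 2.04% of all called). In SHR against ACTH 4 were called, all higher in SHR (beside 1.57% of all), those of Ly6c, Col1a1, Col1a2 and Col3a1. Smooth muscle markers summed to 32328 to 38079 in WKY and 33740 to 34777 in ACTH, with 0 of 13 probesets called and 0 with an unadjusted limma p under 0.05. The part of fibroblast or smooth muscle RNA in the Cdh13, laminin and Sdc1 values was not tested.

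**Figure D3:**
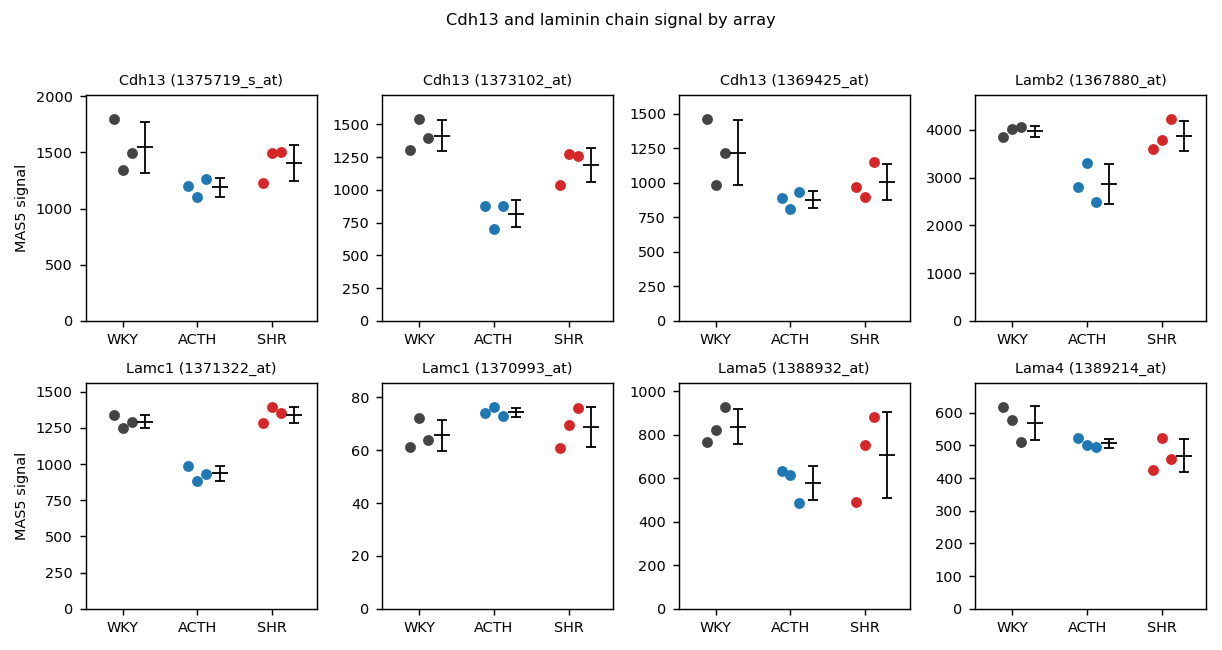
MAS5 signal of the Cdh13 probesets and of laminin chain probesets on each array (points), with the mean and SD of 3 arrays (bars). ACTH arrays lie below all WKY arrays for the 3 Cdh13 probesets, Lamb2, Lama5 and the bright Lamc1 probeset (mean 936, against 1294 in WKY), but not for the dim Lamc1 probeset (74.4 against 65.7).

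No integrin chain was called in any comparison. All 4 kept alpha chains had changes below 0 in ACTH against WKY (median -0.304), and in SHR 2 were below and 2 above 0 (median 0.079). The median over the 3 kept beta chains was 0.019 in ACTH and -0.044 in SHR. Against WKY the unadjusted limma p was under 0.05 for 1 of the 10 alpha and beta chain probesets in ACTH, that of Itga3, and for 0 in SHR. Over all kept probesets 12.5% and 16.4% passed that mark.

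Itga1, which pairs with Itgb1 as a collagen receptor of smooth muscle, gave 915, 596 and 1013 in WKY, 676, 652 and 666 in ACTH and 1453, 752 and 913 in SHR. The SHR arrays were above the ACTH arrays (0.59 ± 0.26, limma adjusted p = 0.272), and SHR 1 stood well above the other SHR arrays. Itga8, a receptor for fibronectin and nephronectin in smooth muscle, showed the same array still more, with 414 in SHR 1 beside 94.9 and 140 in SHR 2 and SHR 3, 125 to 187 in WKY and 95.8 to 167 in ACTH. The SE of its changes was therefore 0.45, the widest of the kept members. Itga3, a laminin receptor chain, gave 418, 347 and 386 in WKY, 309, 275 and 267 in ACTH and 232, 320 and 365 in SHR. All its ACTH arrays lay below WKY (-0.43 ± 0.18, limma adjusted p = 0.352), with a change of -0.23 under the GAPDH covariate.

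Itga7, the laminin receptor chain of muscle, gave 831, 818 and 783 in WKY, 693, 691 and 679 in ACTH and 626, 868 and 810 in SHR at 1370937_a_at. ACTH lay below WKY there (-0.24 ± 0.15, limma adjusted p = 0.585), and at 1388240_a_at the groups overlapped (0.07 ± 0.21). The suffix of both marks probes for several transcripts of a gene, and the remaining Itga7 probeset was not kept (0.658 to 6.05).

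Itgb1 codes for the beta chain common to most matrix-binding integrins. At 1368819_at its signals were 2986, 2055 and 2288 in WKY, 2322, 2181 and 2689 in ACTH and 2373, 2351 and 2300 in SHR. All groups overlapped, and the 95% interval of the change was -0.41 to 0.32 in SHR and -0.38 to 0.35 in ACTH. The second Itgb1 probeset gave 0.35 ± 0.17 in ACTH and 0.16 ± 0.17 in SHR, also with overlap.

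Itgb5, a chain of vitronectin receptors, overlapped between SHR and WKY at both probesets and was -0.26 ± 0.15 and 0.02 ± 0.15 from WKY in ACTH. Itgb4, a hemidesmosome chain, was 0.39 ± 0.22 from WKY in SHR with overlap. Integrin chains of platelets and leukocytes were not kept, with Itga2b at 17.5 to 42.3, Itgam at 2.89 to 10.9, Itgad at 3.06 to 23.7, Itgae at 31.5 to 40.5 and Itgb7 at 3.39 to 40.5. Itga6 was not kept at either probeset (17.3 to 37.0).

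**Figure D4:**
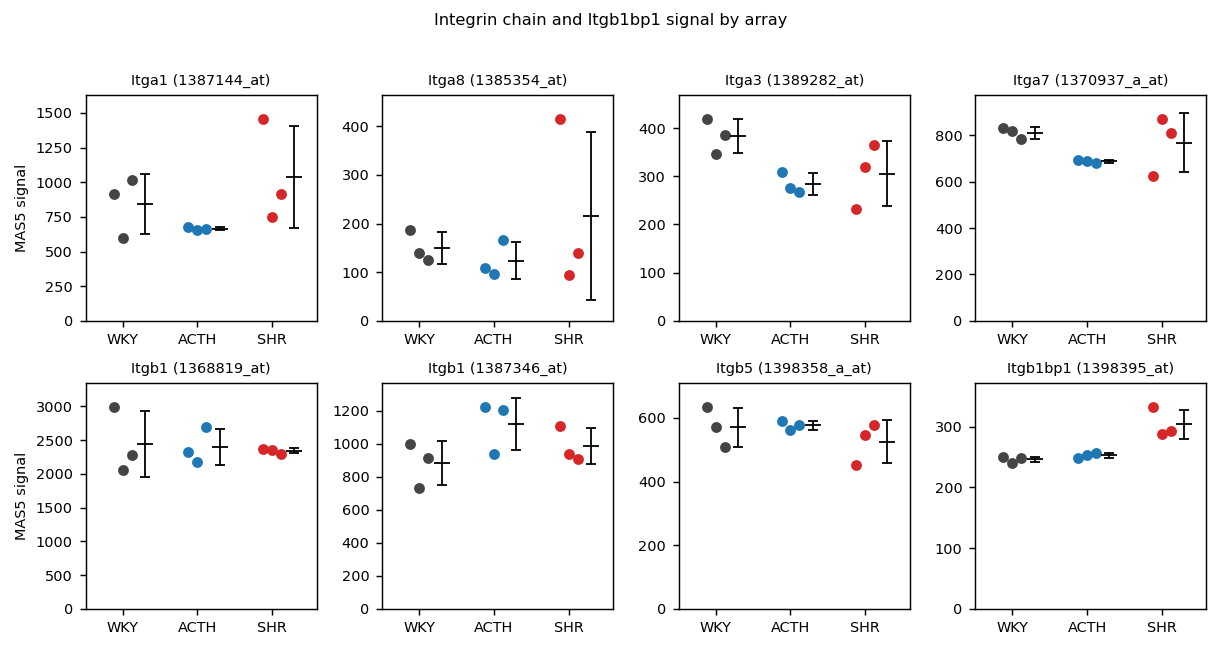
MAS5 signal of integrin chain probesets and of Itgb1bp1 on each array (points), with the mean and SD of 3 arrays (bars). SHR 1 stands apart for Itga1 (1453) and Itga8 (414), and the Itgb1bp1 arrays of SHR (mean 304) lie above those of WKY (246) and ACTH (253).

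Itgb1bp1, which binds the tail of Itgb1 and holds back its activation, gave 250, 241 and 248 in WKY, 249, 254 and 257 in ACTH and 332, 288 and 293 in SHR. The SHR arrays were above all others, by 0.30 ± 0.12 over WKY (limma adjusted p = 0.265) and 0.26 ± 0.12 over ACTH (limma adjusted p = 0.313), and neither passed. Itgb3bp, which binds the tail of Itgb3 and is also a centromere protein, was kept at 1 of 2 probesets (22.3 to 75.3) with overlapping groups. Itgb1bp2 was not kept (5.73 to 32.0).

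Of 27 kept probesets of 23 focal adhesion genes, 0 were called in SHR or in ACTH against WKY by limma, with 6 and 3 at an unadjusted p under 0.05, a mark that 16.4% and 12.5% of all kept probesets passed. Between SHR and ACTH 1 was called (beside 3.40% of all kept probesets), Parva, the actin-binding partner of integrin-linked kinase. It gave 782, 784 and 585 in WKY, 922, 745 and 857 in ACTH and 410, 356 and 534 in SHR, so all SHR arrays lay below the others. SHR was -0.97 ± 0.19 from ACTH (limma adjusted p = 0.0214) and -0.73 ± 0.19 from WKY (limma adjusted p = 0.0849). Of 13 kept probesets of 11 catenin and cadherin-partner genes, limma called 0 in each of the 3 comparisons, with 2, 2 and 3 at an unadjusted p under 0.05 in SHR, ACTH and SHR against ACTH (17.2% of all kept probesets in the last).

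Among 14 kept probesets of 11 genes for basement membrane proteins and integrin ligands, 1 was called in SHR (beside 2.04% of all kept probesets) and 1 in ACTH (beside 1.21%). Between the models 0 were called, and 4 had an unadjusted limma p under 0.05, beside 17.2% of all. Tnc, tenascin C, a matrix protein bound by integrins and syndecans, gave 209, 110 and 126 in WKY, 55.3, 80.0 and 56.2 in ACTH and 48.9, 46.7 and 29.0 in SHR. WKY was highest on all arrays, as for Sdc1. Tnc fell in SHR (-1.82 ± 0.28, limma adjusted p = 0.00718) and was -1.18 ± 0.28 from WKY in ACTH (limma adjusted p = 0.0887). Spp1, osteopontin, a ligand of integrins that macrophages and injured smooth muscle make, gave 33.2, 38.2 and 35.7 in WKY, 113, 93.9 and 80.1 in ACTH and 85.6, 48.7 and 46.6 in SHR. It rose in ACTH (1.41 ± 0.23, limma adjusted p = 0.0189) and was 0.70 ± 0.23 above WKY in SHR (limma adjusted p = 0.174). All its WKY arrays lay under the 44.3 that marked the lowest kept probeset. Spp1 passed the filter on low signal through its ACTH and SHR arrays, so its call, the only call of this list in ACTH, is not counted as support. The counts and medians given here include it. The median change over the 11 genes was -0.301 in SHR and -0.341 in ACTH, beside -0.001 and 0.024 over all kept genes.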

How the data were processed

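RNA of 9 arrays (RAE230A, 3 each of WKY, ACTH and SHR, grouped by their labels) had been amplified in 2 cycles. The authors made 1 intensity per probeset and array with MAS5 and scaled it to a target of 150; the deposited table holds no detection calls, and its number of arrays limits the precision. Leaving out 57 controls of 15923 probesets, signals were ranked by the third-brightest array and the top 9098 kept, a number taken from the study's filter on presence. Symbols came from the platform annotation (7720 kept probesets with 1 symbol, 220 with several, 1158 with none), and an update through RefSeq identifiers, which held 10379 of 10412, changed 0 symbols. GAPDH ratios were computed from the control probesets and scan days read from the deposited array records, which hold other values and no signal.

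A 3-group model of the log2 signal was fitted with limma 3.58.1 under R 4.3.3 (lmFit and eBayes without trend, 6 residual and 4.44 prior degrees of freedom), with two-sided p-values and Benjamini-Hochberg adjustment over what was kept. Labels name separate pools for the arrays but not how rats were shared out, so p-values measure the spread between pools. Lists of partner genes and of cell markers were described by counts and medians. Named were the genes of these families in the study's text, every called member, in each class up to 5 genes with the lowest F test p, the brightest gene, other probesets of these genes, and called members of the partner lists. Members and lists were chosen with earlier results of these data known. Of the marker lists not yet given, limma called 1 of 5 kept adipocyte probesets in SHR and 1 in ACTH against WKY, 2 and 0 of 6 skeletal muscle probesets, and 0 and 0 of 6 Schwann cell probesets (1 and 0 at an unadjusted p under 0.05). Over all kept probesets 2.04% and 1.21% were called. The fit was tested on simulated data. Alternatives were no filter, a minimum mean signal of 100, between-array scaling by quantiles or by the median, an offset of 16 before log2, eBayes with a trend, array weights, the GAPDH ratio as a covariate, blocks of scan day or of replicate number, only the groups compared, the methods' unmoderated tests and each array left out; leaving out WKY 2 and SHR 1 together was chosen after seeing the data.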

Additional observations from a re-analysis of the deposited data

Results flagged for a closer look

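For 2 probesets the effects of the 2 models against WKY differed by the test of that difference, which is the comparison of SHR with ACTH. Lamc1 at 1371322_at differed by 0.52 on the log2 scale (limma adjusted p = 0.0489), with changes of 0.05 in SHR and -0.47 in ACTH. Icam2 at 1390310_at differed by -1.63 (limma adjusted p = 0.0205), with changes of -1.73 in SHR and -0.11 in ACTH. Both genes have another probeset on which SHR and ACTH did not differ past the threshold (-0.12 for Lamc1 and 0.19 for Icam2, limma adjusted p = 0.729 and 0.616). The models share the WKY arrays, which do not enter the size of this difference but do enter its standard error. Without WKY 1, WKY 2 or WKY 3 the Lamc1 call was lost (limma adjusted p = 0.0560, 0.0606 and 0.0650).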

How the results depend on the processing

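With 3 arrays per group, calls of members rested on the choice of probesets and covariates more than their directions did. In SHR against WKY the 3 calls became 0 over all non-control probesets, 0 with the GAPDH covariate and 0 with the methods' unmoderated tests, and 1 each with the groups compared alone and without WKY 2 and SHR 1 (Icam2 1390310_at). It was 1 with a mean signal of at least 100, a filter that left out the other called probesets (Sdc1 1367849_at stayed), and 1 with the scan day block, where none of the 3 was called and Cdh22 1368887_at was. Leaving out 1 array gave 1 to 3. In ACTH against WKY the 1 call became 2 at a mean signal of at least 100, 3 with a variance trend and 2 with array weights. It became 0 over all non-control probesets, with quantile normalization, the GAPDH covariate, the scan day block, the replicate block, the groups alone, the unmoderated tests and without WKY 2 and SHR 1, and leaving out 1 array gave 0 to 1. In SHR against ACTH the 2 calls became 5 with array weights, 0 over all non-control probesets and 0 with the scan day block, and 1 each at a minimum mean of 100, with quantile normalization, the GAPDH covariate, the replicate block, the groups alone, the unmoderated tests and without WKY 2 and SHR 1. Leaving out 1 array gave 0 to 1. The 4 calls of the F test became 0 over all non-control probesets and 0 with the GAPDH covariate, 1 with the scan day block, 1 with the unmoderated tests and 1 without WKY 2 and SHR 1, and 0 to 4 with 1 array left out.

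The median member change moved to -0.019 in SHR against WKY and 0.235 in SHR against ACTH with the scan day block, and to -0.080 in ACTH against WKY over all non-control probesets. With 1 array left out it was -0.154 to -0.044, 0.089 to 0.147 and -0.238 to -0.067, in the same order. Of 566 alternative values for 26 single results, 490 kept direction and side of the threshold, 66 lost and 9 gained a call, and 1 reversed: Cdh22 in SHR, from -0.90 to 0.06 with the GAPDH covariate. Only results called at the outset could lose a call, and most of the 26 were not called. The Sdc1 calls in SHR held in 8 of 22 (1367849_at) and 12 of 21 alternatives (1376062_at). Those of Icam2 1390310_at held in 16 of 21 against WKY and 15 of 21 against ACTH. The calls of Cdh13 1373102_at in ACTH and Lamc1 1371322_at between the models each held in 6 of 22. The cause of these shifts was not tested. The fit over all 15866 probesets raised the number of tests and also changed the probesets that eBayes drew on.

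Same-numbered arrays did not deviate together (r of -0.07 to 0.13 over 9 pairs), so the numbers do not pair the arrays. With the replicate block SHR against WKY kept a count of 3, while ACTH against WKY had 0 (Cdh13 1373102_at, limma adjusted p = 0.0704) and SHR against ACTH 1 (Lamc1 1371322_at, limma adjusted p = 0.0883). The counts over all kept probesets changed by over 1.5 times as well: SHR against WKY gave 186 and 72 over all non-control probesets, 37 with the GAPDH covariate and 26 with the scan day block, and ACTH against WKY gave 110 and 0 in each of these fits.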
